A study of Mus musculus with 8 samples.

Results

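Genes of the Hippo pathway and of apical cell polarity were examined in single mouse blastocysts. The members were taken by symbol from a list of 10 genes: Nf2, Lats1, Lats2, Amotl2, Yap1, Wwtr1 and Tead1 of the Hippo pathway, and Pard3, Pard6b and Prkci of the apical polarity complex. Of these, 9 were found by symbol among the 22810 genes of the deposited counts, and Amotl2, which encodes an angiomotin-like junction protein, was not analysed here. All 9 passed the filter on low counts (10 reads or more in 1 or more of the allele libraries) and were among the 12566 autosomal genes tested. The embryos were E3.5 blastocysts from natural matings, never cultured, and each was sequenced alone with a SMART-Seq2 protocol. There were 3 forward embryos, with a B6 mother and a cast father, and 5 reverse embryos, with a cast mother and a B6 father, numbered 1, 2, 3, 5 and 7. B6 is the inbred laboratory strain C57BL/6 and cast is an inbred strain of the subspecies Mus musculus castaneus. None of the embryos carries a transgene, deletion or treatment, a whole blastocyst mixes trophectoderm and inner cell mass, and the sex of the embryos was not part of the labels used.

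The Hippo pathway is a kinase cascade that holds back transcription. Nf2 (Merlin) and angiomotins at cell junctions bring the kinases Lats1 and Lats2 to act, and these phosphorylate the coactivators Yap1 (YAP) and Wwtr1 (TAZ), which then stay out of the nucleus. Unphosphorylated YAP and TAZ enter the nucleus and bind TEAD factors such as Tead1, which carry the DNA-binding domain. In the early mouse embryo the pathway reads cell position. Outer cells have an apical domain built by Pard3, Pard6b and the atypical protein kinase C encoded by Prkci, keep the pathway off and turn on trophectoderm genes, while inner cells without that domain keep it on. These steps act largely on protein location and phosphorylation, which read counts do not measure.

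In mm10 (GENCODE M21), Nf2 lies at chr11:4765845-4849536 on the minus strand, Lats1 at chr10:7681214-7716460 on the plus strand and Lats2 at chr14:57689662-57758388 on the minus strand. Yap1 lies at chr9:7931999-8004596 and Wwtr1 at chr3:57455649-57575910, both on the minus strand, and Tead1 at chr7:112679318-112906807 on the plus strand. The polarity genes Pard3 (chr8:127063893-127612286), Pard6b (chr2:168081004-168101203) and Prkci (chr3:30995747-31052959) are all on the plus strand. Exons of Yap1 overlap those of Gm20416 on the opposite strand and exons of Lats2 overlap those of Gm49361 on the same strand, so a read could come from either gene of a pair and the values of Yap1 and Lats2 carry that uncertainty.

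Promoter windows from RefSeq (GRCm38.p6, 250 bases before to 50 after the start site) were found for 9 of the 10 listed genes, all but Tead1. The core TEAD motif GGAATG, searched on both strands (CATTCC on the other), occurred in a window of 5 of these 9 genes, in 6 of their 13 windows, against 14.7% of all 32851 windows and 16.6% of the 27025 genes with a window. The genes were Yap1, Wwtr1, Lats2, Prkci and Amotl2. Windows of Nf2, Lats1, Pard3 and Pard6b did not hold these letters. Both windows of Wwtr1 overlap and hold the same match, which the 6 windows therefore count more than once. The windows of the 4 measured genes with the motif are printed because their transcripts, like those of Tead1 and Pard3, were all highest in the same embryo, as described further on. That embryo was also the highest for 33.9% of all genes tested, and a link between motif and level was not tested. They come from chr9:8004547-8004846 (Yap1, minus strand), chr3:57575861-57576160 (Wwtr1, minus), chr14:57746074-57746373 (Lats2, minus) and chr3:30995521-30995820 (Prkci, plus), are written 5′ to 3′ along the gene, and the capitals mark the motif.
Yap1 promoter: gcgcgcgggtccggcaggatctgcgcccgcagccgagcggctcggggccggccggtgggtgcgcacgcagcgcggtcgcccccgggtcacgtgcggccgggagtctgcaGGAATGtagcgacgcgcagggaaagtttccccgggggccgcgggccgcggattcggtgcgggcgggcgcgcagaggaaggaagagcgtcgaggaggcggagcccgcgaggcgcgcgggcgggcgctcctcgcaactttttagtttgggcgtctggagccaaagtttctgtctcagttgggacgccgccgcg
Wwtr1 promoter: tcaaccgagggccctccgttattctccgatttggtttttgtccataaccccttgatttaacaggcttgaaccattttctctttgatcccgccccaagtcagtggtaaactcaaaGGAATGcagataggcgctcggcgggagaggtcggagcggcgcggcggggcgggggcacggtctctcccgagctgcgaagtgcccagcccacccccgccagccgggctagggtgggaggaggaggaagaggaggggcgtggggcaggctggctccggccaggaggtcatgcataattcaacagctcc
Lats2 promoter: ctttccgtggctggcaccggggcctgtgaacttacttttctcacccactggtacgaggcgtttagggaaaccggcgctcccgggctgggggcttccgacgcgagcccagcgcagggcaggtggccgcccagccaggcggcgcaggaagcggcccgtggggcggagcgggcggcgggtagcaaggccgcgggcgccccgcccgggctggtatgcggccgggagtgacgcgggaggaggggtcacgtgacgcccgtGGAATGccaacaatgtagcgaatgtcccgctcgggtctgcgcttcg
Prkci promoter: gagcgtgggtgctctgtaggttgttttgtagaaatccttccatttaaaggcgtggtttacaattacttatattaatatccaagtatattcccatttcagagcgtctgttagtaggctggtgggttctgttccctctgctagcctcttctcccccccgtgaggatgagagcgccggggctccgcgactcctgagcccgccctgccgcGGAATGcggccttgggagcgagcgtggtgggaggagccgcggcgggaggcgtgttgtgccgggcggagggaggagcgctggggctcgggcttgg
The motif begins 141 bases before the start site in Yap1, 136 in Wwtr1 and 44 in Prkci, and at base 5 after it in Lats2. A match in this window is a description of the letters and not evidence of binding.

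Each value is a count of reads that span a SNP between B6 and cast, so that every gene has a maternal and a paternal count per embryo. The embryos held 1060063 to 1632695 such reads, and B6 alleles received 57.4% to 58.3% of them in every embryo, whichever parent the B6 allele came from. The 9 genes together held 0.0819% to 0.304% of an embryo's reads. How many reads a gene gives depends on how many SNPs its transcript carries, so levels are compared between embryos for 1 gene and never between genes. The labels do not say which embryos were littermates. Fewer cells of a type cannot be told apart from less RNA per cell in whole embryos. Reverse embryo 1 stood apart from the rest, with a median correlation of 0.745 with the other embryos, against 0.862 to 0.899 for the others. Its 7 trophectoderm markers summed to 930 RPM (reads per 1000000 SNP-spanning reads of the embryo), against 3680 to 4993 in the other embryos, mostly through the keratins Krt8 (303 RPM) and Krt18 (189 RPM). The other 5 markers summed to 438 RPM there and to 448 to 1075 in the other embryos. Of these, Cdx2 (3.32 RPM) and Eomes (49.2 RPM, with 53.8 in reverse embryo 2) were lowest there, and Tfap2c was highest there. In forward embryo 1, 7 of 7 leukocyte markers had reads and summed to 843 RPM, against 42.5 and 58.7 in the other forward embryos and at most 5.32 in the reverse embryos. Most of that sum was Lyz2 (646 RPM) and C1qb (150 RPM), with 1055 of 1055 and 245 of 245 reads maternal. The reads of Ptprc, Tyrobp, C1qa and Cd52 there were all maternal too, and 3 of 4 reads of Csf1r were. Results that change without these embryos are given with that value.

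Pard3, the scaffold of the apical complex, differed 5.11-fold between the embryos with its lowest and highest levels. It had 668, 615 and 409 RPM in the forward embryos (numbers 1, 2 and 3 in this order), and 1228, 459, 240, 375 and 328 in the reverse embryos (numbers 1, 2, 3, 5 and 7). Reverse embryo 1 was the highest of all, and the crosses overlapped. Prkci, the kinase of the same complex, had 151, 119 and 118 RPM in the forward embryos and 194, 69.4, 64.1, 104 and 81.1 in the reverse embryos, again highest in reverse embryo 1. Pard6b, their adaptor, was covered by only 8 to 35 reads per embryo, or 6.67 to 21.4 RPM, and was highest in forward embryo 1.

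The Hippo kinase Lats2 had 77.8, 88.6 and 66.5 RPM in the forward embryos and 235, 87.6, 47.4, 90.1 and 92.4 in the reverse embryos, so that 1 embryo lay far above 7 others. Lats1 had only 1 to 17 reads per embryo, or 0.943 to 13.3 RPM. Nf2, the upstream activator, varied least over the 8 embryos, from 66.9 to 127 RPM, and its highest value was in reverse embryo 7.

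The coactivators and their DNA-binding partner also peaked in reverse embryo 1. Yap1 had 66.8, 53.8 and 77.5 RPM in the forward embryos and 112, 50.7, 27.4, 76.6 and 71.7 in the reverse embryos. Wwtr1 had 137, 161 and 117 in the forward embryos and 272, 95.7, 65.4, 137 and 117 in the reverse embryos. Tead1 had 685, 574 and 499 in the forward embryos and 866, 309, 272, 465 and 419 in the reverse embryos. For all 3 genes reverse embryo 1 was the highest and reverse embryo 3 the lowest of the 8.

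**Figure D1:**
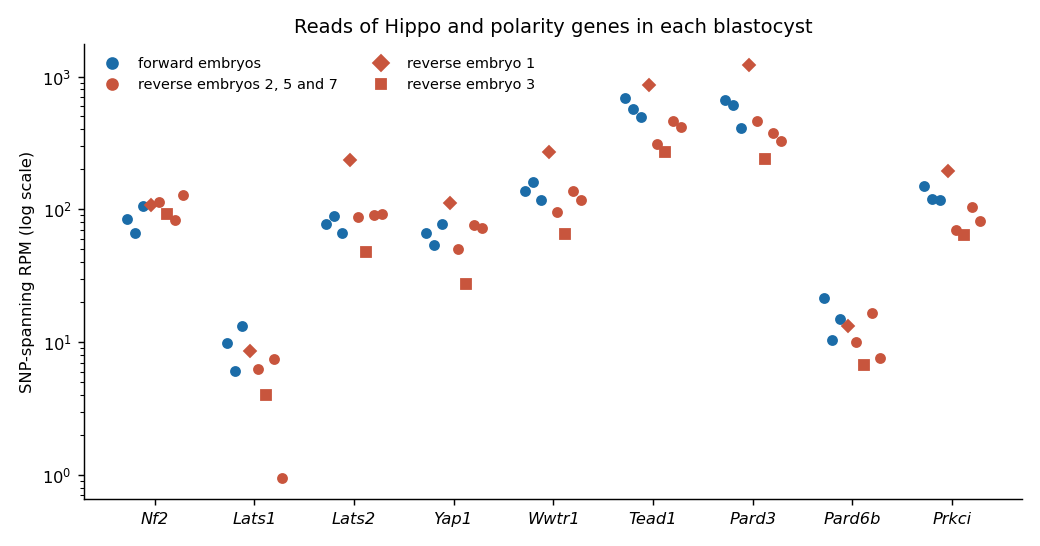
SNP-spanning RPM (log scale) for each gene, 1 symbol per embryo in the order forward 1, 2, 3 and reverse 1, 2, 3, 5, 7. Reverse embryo 1 (diamond) was highest for 6 of 9 genes and reverse embryo 3 (square) lowest for 7 of 9. Heights are not comparable between genes.

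Reverse embryo 1 was the highest for 6 of the 9 genes (Lats2, Yap1, Wwtr1, Tead1, Pard3 and Prkci), and reverse embryo 3 the lowest for 7 of 9. Over all genes tested, 33.9% were highest in reverse embryo 1 and 23.0% lowest in reverse embryo 3. Against the median of the other embryos, reverse embryo 1 held 3.01 times the level of Pard3, 2.69 times that of Lats2 and 2.32 times that of Wwtr1. The ratio was 1.86 for both Tead1 and Prkci, 1.68 for Yap1, 1.38 for Lats1, 1.28 for Pard6b and 1.18 for Nf2. Of the other Hippo and polarity genes tested, 18 of 44 were also highest there.

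Over all genes, the levels of reverse embryos 1 and 3 moved with genomic span. Among all tested genes with a RefSeq span, the median log2 level of reverse embryo 1 against the other embryos was -0.74 for 2799 genes under 10 kb and 1.0 for 1655 genes over 100 kb. In reverse embryo 3 the corresponding medians were 0.0 and -0.67. None of the 9 genes spans under 10 kb, 2 span 10 to 50 kb, 4 span 50 to 100 kb and 3 span over 100 kb. The span is 549 kb for Pard3, 227 kb for Tead1, 120 kb for Wwtr1, 91.9 kb for Nf2, 72.6 kb for Yap1, 57.0 kb for Prkci, 56.6 kb for Lats2, 35.3 kb for Lats1 and 20.2 kb for Pard6b. The 9 genes do not follow this order throughout, as Nf2 had the smallest ratio in reverse embryo 1, Lats2 the second largest, and Tead1 the same ratio as Prkci. The part of the span, and that of the low trophectoderm marker sum in reverse embryo 1, in the levels of these genes was not tested.

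**Figure D2:**
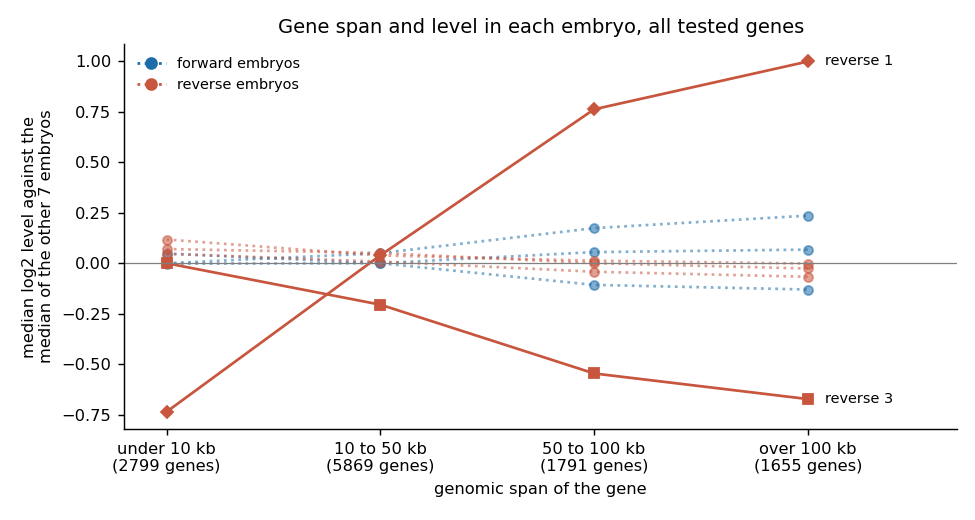
Median log2 level of each embryo against the median of the other 7, for tested genes in 4 classes of genomic span. Reverse embryo 1 runs from -0.74 under 10 kb to 1.0 over 100 kb and reverse embryo 3 from 0.0 to -0.67, while the other embryos (dotted) stay nearer to 0.

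The crosses were then compared in their total reads (edgeR, quasi-likelihood test), which asks whether the mother's and father's strains go with another level. None of the 9 genes differed, and none had an unadjusted p below 0.05. DESeq2 called 0 of 9 as well. Over all genes edgeR called 0.103%. The log2 fold changes (reverse over forward) ran from -0.83 for Lats1 (SE 0.76) to 0.46 for Lats2 (SE 0.39), with a smallest adjusted p of 0.809. Pard3 was at -0.16 (95% interval -1.08 to 0.77), Tead1 at -0.36 (-1.12 to 0.39), Prkci at -0.36 (-1.10 to 0.38) and Yap1 at -0.01 (-0.80 to 0.79), so that sizeable differences in either direction lay within the intervals. Reverse embryo 1 weighed on these values. Without it the log2 fold change was -0.63 for Pard3, -0.62 for Tead1 and -0.64 for Prkci, with adjusted p of 0.277, 0.268 and 0.277. In that fit 3 of 9 genes had an unadjusted p below 0.05. The share of all genes below 0.05 was not counted there, and was 7.38% with all embryos. Over all genes the number called rose from 13 to 163 without that embryo. Without forward embryo 1, edgeR called 0 of 9 and no unadjusted p was below 0.05.

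The comparison of paternal with maternal alleles is the one that the reciprocal crosses were made for. None of the 9 genes differed between parental alleles with edgeR (quasi-likelihood test, threshold of 0.1 on the adjusted p), where 1.42% of all genes were called. No gene had an unadjusted p below 0.05, and DESeq2 called 0 of 9. Log2 fold changes (paternal over maternal) were within 0.11 of 0 for 6 genes: Lats2 at -0.00 (SE 0.32), Nf2 at -0.02 (SE 0.27), Prkci at -0.02 (SE 0.29), Tead1 at 0.05 (SE 0.27), Yap1 at 0.10 (SE 0.31) and Wwtr1 at -0.11 (SE 0.29). Pard6b was at -0.19 (SE 0.53) and Pard3 at -0.31 (SE 0.33). Lats1 stood at 0.89 with an SE of 0.75, since its reads summed to 80 over all embryos.

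The maternal and paternal counts of an embryo form a true pair, and a term for each embryo uses it. With this replicate block, 3.11% of all genes and again 0 of the 9 genes were called. Pard3 alone had an unadjusted p below 0.05, with a log2 fold change of -0.28 (95% interval -0.50 to -0.06, adjusted p 0.281), toward the maternal allele. Tead1 had the narrowest interval on the other side of 0, at 0.08 (-0.14 to 0.30).

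A p that misses the threshold does not show equal expression, so the paternal over maternal log2 fold change was also tested against margins of -1 and 1, with the larger of both one-sided p-values taken. Expression was equivalent within this 2-fold margin for 7 of 9 genes (Nf2, Lats2, Yap1, Wwtr1, Tead1, Pard3 and Prkci), where 35.3% of all genes were called. In a fit of the 7162 genes with at least 10 reads in every embryo, 5588 were called, so the count for the 9 genes does not set them apart from well-covered genes. Adjusted p from edgeR ran from 0.0183 for Nf2 to 0.0788 for Pard3. Lats1 (adjusted p 0.558) and Pard6b (0.152), the members with the fewest reads, were not called. With the replicate block the same 7 genes were called, among 45.3% of all genes, with adjusted p from 2.7e-07 for Tead1 to 0.00292 for Yap1. Without the block the count rests on the 3 forward embryos, as it did over all genes. It fell to 3 of 8 genes tested without forward embryo 3 and to 5 of 9 without forward embryo 1 or 2. Over all genes 1625 of 12486, 2055 of 12184 and 1842 of 12499 were called in these fits, against 4439 of 12566 with all embryos. With the block the count for the members was 7 each time, where 4729, 4744 and 4759 genes were called over all. With a margin of 1.5-fold, edgeR without the block called 0 genes, members or not, and 3 members had an unadjusted p below 0.05. Without reverse embryo 1, edgeR without the block called Pard6b too (adjusted p 0.0824), where 5657 of 11933 genes were called over all.

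**Figure D3:**
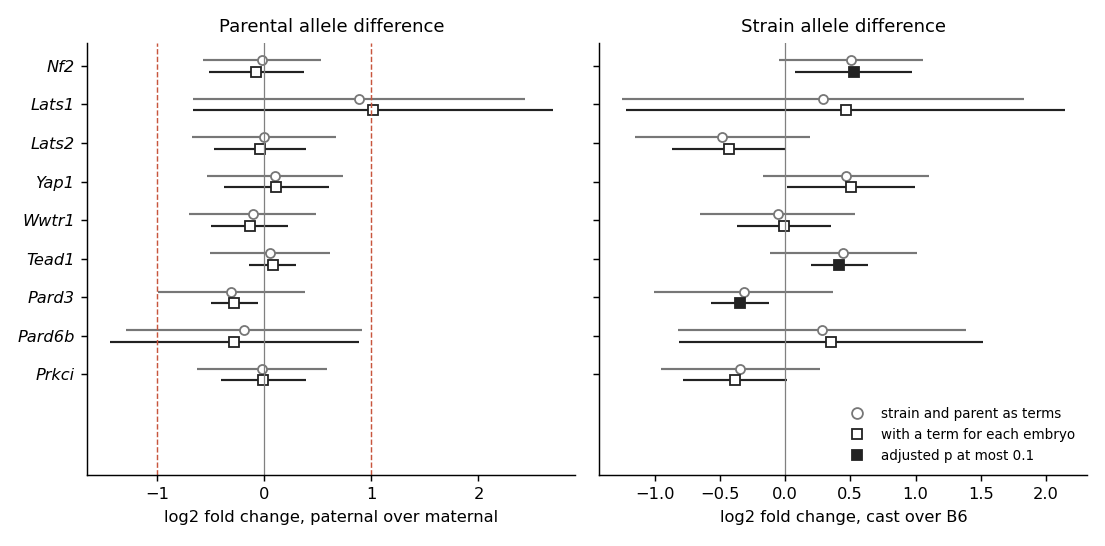
Log2 fold changes with 95% intervals for paternal over maternal (left) and cast over B6 alleles (right), from edgeR without (circles) and with (squares) a term for each embryo. Filled symbols have an adjusted p of at most 0.1, and dashed lines mark the equivalence margins of -1 and 1. No parental difference is filled, and 3 strain differences are, all with the embryo term.

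The shares of the single embryos show what these sums hold. Pard3 was read to 35.7%, 31.4% and 35.4% from the paternal allele in the forward embryos, and to 56.6%, 49.9%, 61.9%, 59.9% and 58.6% in the reverse embryos, in the same order. Since the father is cast in the forward and B6 in the reverse cross, the B6 allele gave more reads in 7 of 8 embryos. The 95% Wilson intervals cover counting error only and were widest in reverse embryo 7 (53.4% to 63.7%), since the gene had 348 to 1849 reads per embryo. Prkci followed the same pattern at lower depth, with paternal shares of 44.3%, 37.2% and 31.8% in the forward embryos and 57.9%, 58.6%, 56.3%, 65.5% and 74.4% in the reverse embryos. Its B6 allele gave more reads in all 8 embryos, with a mean B6 share of 62.4% ± 6.61 (SD, n = 8).

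Lats2 was the other gene with more B6 reads in all 8 embryos. Its paternal share was 39.4%, 28.4% and 42.4% in the forward embryos and 71.8%, 50.7%, 67.6%, 64.2% and 58.2% in the reverse embryos. Its mean B6 share was 62.8% ± 7.38 (SD, n = 8). Among all genes tested, 13.8% had more B6 reads in all 8 embryos and 1.99% more cast reads, against 2 and 0 of the 9. Wwtr1 lay closer to the share of the whole libraries, with a mean B6 share of 55.2% ± 6.65 (SD, n = 8).

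Tead1 was read about equally from both alleles. Its paternal share was 53.9%, 52.0% and 53.0% in the forward embryos, 53.0% ± 0.923 (SD, n = 3), and 44.4%, 48.4%, 50.7%, 51.6% and 57.4% in the reverse embryos, 50.5% ± 4.78 (SD, n = 5). Over the 8 embryos its B6 share was 49.2% ± 4.07, below the 57.4% to 58.3% of the whole libraries. Yap1 behaved likewise, with a B6 share of 47.4% ± 9.22 (SD, n = 8) and paternal shares from 36.6% to 64.5%.

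Nf2 scattered most over its counting error in the reverse cross. Its paternal share was 50.4%, 48.1% and 57.8% in the forward embryos and 32.1%, 60.0%, 45.3%, 35.1% and 57.0% in the reverse embryos. Reverse embryos 1 (52 of 162 reads paternal, Wilson interval 25.4% to 39.6%) and 2 (108 of 180, 52.7% to 66.9%) lay on opposite sides of 50%, although both had the same cross. The spread of the reverse embryos was 9.64 times what counting error alone would give, as a chi-square over its degrees of freedom. The same ratio was 6.53 for Tead1, 5.46 for Lats2, 5.05 for Pard3, 4.96 for Wwtr1, 4.19 for Pard6b, 2.97 for Yap1, 2.52 for Prkci and 1.15 for Lats1. Its median over 5598 genes with at least 20 reads per embryo was 4.12, with quartiles of 2.20 and 7.31. In the forward cross Tead1 had the lowest ratio (0.289) and Prkci the highest (3.20), around a median of 2.31 for 5601 genes. Reads were amplified and bear no molecular identifiers, so they are not independent molecules and the intervals cover counting error only.

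For Lats1 and Pard6b shares can only be read from sums over embryos. Paternal reads of Lats1 were 25 of 40 in the forward cross and 27 of 40 in the reverse cross. Pard6b had 30 of 66 and 37 of 76, with shares of single embryos between 12.5% and 75%.

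**Figure D4:**
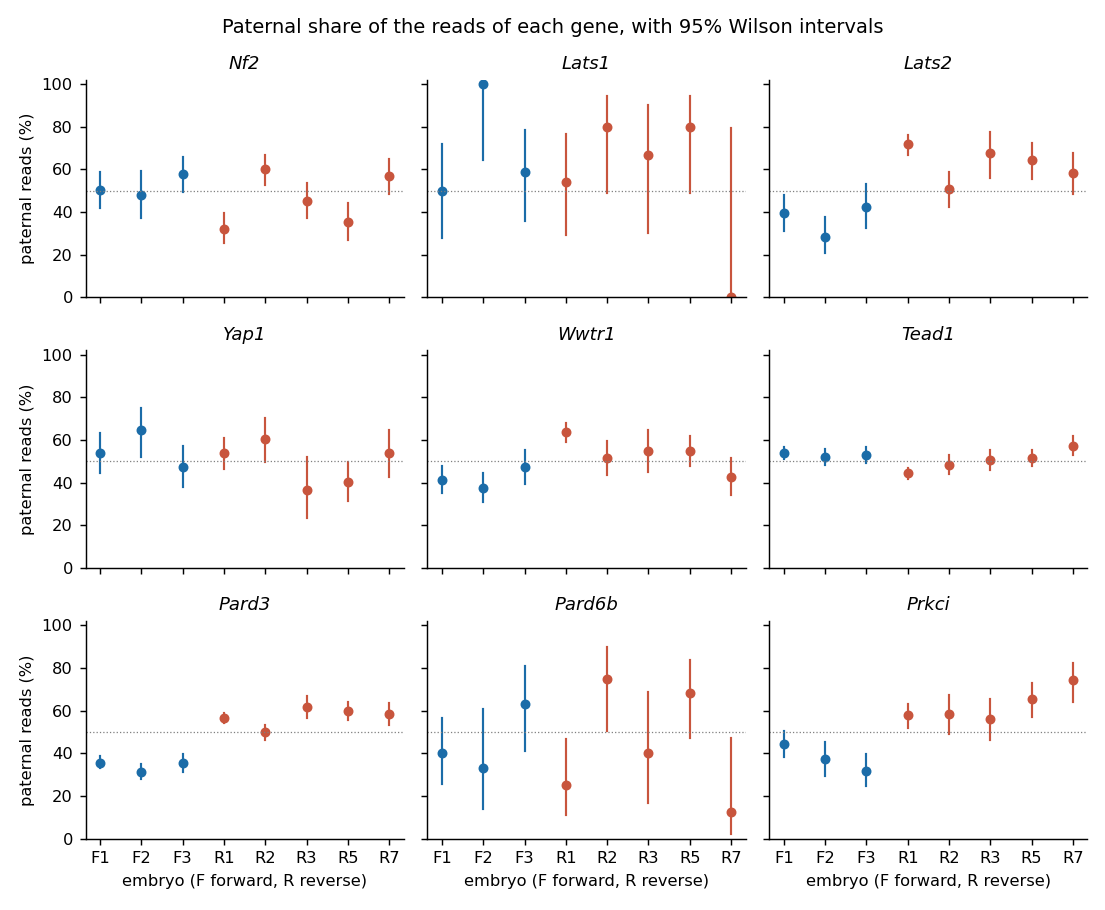
Paternal share of the SNP-spanning reads (%) of each gene in each embryo, forward in blue and reverse in red, with 95% Wilson intervals and a dotted line at 50%. Pard3, Prkci, Lats2 and Wwtr1 are below 50% in all 3 forward embryos and above it in at least 4 of 5 reverse embryos. Tead1 stays near 50%, and Nf2 scatters within the reverse cross.

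Whether B6 and cast alleles differ in their reads was tested in the same edgeR fit. Reads of both alleles had been aligned to mm10. The part of alignment in the strain differences of these and the other pathway genes was not tested. None of the 9 genes was called, none had an unadjusted p below 0.05 and DESeq2 called 0 of 9, where 15.4% of all genes were called by edgeR. With the replicate block the count was 3 of 9, near the 25.6% of all genes. Toward cast, Tead1 had a log2 fold change (cast over B6) of 0.42 (SE 0.11, adjusted p 0.00598) and Nf2 one of 0.52 (SE 0.22, adjusted p 0.0965), where 9.88% of all genes were called in that direction. Toward B6, Pard3 was at -0.34 (SE 0.11, adjusted p 0.0235), where 15.7% of all genes were called. Leaving out each embryo in turn within this fit, Tead1 was called each time. Pard3 lost its call without forward embryo 2 (adjusted p 0.132), and Nf2 kept it only without reverse embryo 2 or 7. Without forward embryo 1, the one with leukocyte markers, Tead1 was at 0.39 (adjusted p 0.0439) and Pard3 at -0.38 (adjusted p 0.0509), and without reverse embryo 1 they were at 0.36 (adjusted p 0.00711) and -0.36 (adjusted p 0.0126).

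These directions are relative to the scaling. TMM factors for each allele library remove the excess of B6 reads, and a gene read evenly from both alleles then counts as higher on cast. With 1 library size per embryo for both alleles, chosen with the block after seeing the data, the block gave another set. Pard3 (-0.69, SE 0.10, adjusted p 2.1e-05), Lats2 (-0.77, SE 0.21, adjusted p 0.00791) and Prkci (-0.72, SE 0.19, adjusted p 0.00651) were all called toward B6, where 30.9% of all genes were called and 26.4% toward B6. Tead1 was then at 0.07 (SE 0.10, adjusted p 0.669) and Nf2 at 0.18 (SE 0.22, adjusted p 0.600). Pard3 was thus the gene called under both scalings, and no gene was called toward cast under both. This scaling without the block called 0 of 9 (20.8% of all genes), with an unadjusted p below 0.05 for 2, and moved the median of all genes from -0.06 to -0.39.

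The other genes of the pathway were a list of 52, all with a row in the counts, of which 44 were tested. Between parental alleles 0 of 44 differed in edgeR, where 1.42% of all genes were called, with 1 unadjusted p below 0.05, and DESeq2 called 0. Their median log2 fold change was 0.01, against -0.01 for all genes. Equivalent within 2-fold were 28 of 44, where 35.3% of all genes were, and 5588 of 7162 in the fit of genes with at least 10 reads in every embryo. Without forward embryo 1 the count of pathway genes fell to 12 of 42, and that of all genes to 2055 of 12184. With the block 30 of 44 pathway genes were equivalent, where 45.3% of all genes were called. Leaving out forward embryo 1 as well gave 25 of 42, where 4744 of 12184 genes were called over all. In the test of a parental difference with the block 1 of 44 was called, where 3.11% of all genes were. This was Ezr, which encodes the apical membrane linker ezrin. It had 1214 paternal and 517 maternal reads, with more paternal reads in all 8 embryos and a log2 fold change of 1.33 (SE 0.37, adjusted p 0.0783), while without the block it was at 1.16 (SE 0.51, adjusted p 0.542). The blocked call was lost without forward embryo 1 (adjusted p 0.253), 2 (0.349) or 3 (0.300) or reverse embryo 5 (0.192).

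Between strains 2 of 44 were called in edgeR, below the 15.4% of all genes, both toward B6 and both coding for partners at cell junctions. Without reverse embryo 1 the count was 4 of 43, with Tead2 and Prkcz added, where 2457 of 11933 genes were called over all. Amotl1, an angiomotin like Amotl2, had 118 B6 and 22 cast reads and a log2 fold change of -2.22 (SE 0.65, adjusted p 0.0271). Limd1, a LIM-domain protein that binds LATS kinases, had 777 B6 and 278 cast reads and was at -1.21 (SE 0.34, adjusted p 0.0171). With the block 9 of 44 were called, 4 toward cast (Ctnna1, Birc5, Gata3 and Mark3) and 5 toward B6 (Stk3, Amotl1, Limd1, Prkcz and Cdc42), where 25.6% of all genes were called. Without forward embryo 1 the blocked count was 5 of 42, where 2388 of 12184 genes were called over all. With 1 library size per embryo as well, 10 were called, all toward B6, where 30.9% of all genes were called. They were these 5 and Wwc2, Tead2, Crb3, Rhoa and Rock2, and none of the 4. Prkcz, the other atypical protein kinase C, had 2531 B6 and 1324 cast reads, with more B6 reads in all 8 embryos, and Cdc42, the small GTPase that binds Pard6 proteins, had 2782 and 1713.

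Total reads of the crosses differed for 0 of 44 in edgeR, with 1 unadjusted p below 0.05, and DESeq2 called 0. The lowest adjusted p was that of Gata3, a trophectoderm transcription factor and target of the TEAD factors, with a log2 fold change (reverse over forward) of -0.74 (SE 0.31, adjusted p 0.590). Cdx2, another such factor, named here although no test called it, was at -0.38 (SE 0.63, adjusted p 0.927). Amot, the angiomotin best known from the embryo, lies on the X chromosome and was not tested. Named here after its values were seen, it had 614 maternal and 53 paternal reads, with more maternal reads in all 8 embryos. Males carry only a maternal X chromosome, and the number of males among the embryos was not examined. The cause of the maternal excess of Amot was not tested.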

How the data were processed

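Reads of 8 single E3.5 blastocysts (3 forward, 5 reverse) were analysed from the strain-specific counts over SNPs that the authors deposited for every gene without normalisation. They had aligned the reads to mm10 with STAR (2.5.2b in the labels, while the methods name another version), left out reads mapping to multiple locations, kept reads over SNPs and counted with Allelome.Pro; 2 further embryos had been removed by the authors. Whether strand was used is not given in the sources used here. All count columns were mapped to samples.

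The members and gene lists were chosen with earlier results of these data known. All members are named, and of the pathway list those called for a parental, strain or cross difference; Cdx2 and Amot fall outside this rule. Symbols were matched to GENCODE M21 (18286), RefSeq (2999) or synonyms (417), and 1108 were unmatched and left out with 645 X-linked genes. Genes reaching 10 reads in 1 or more of 16 allele libraries were tested with edgeR 4.0.16 (R 4.3.3, limma 3.58.1; TMM factors, quasi-likelihood test, terms for strain and parent, Benjamini-Hochberg adjustment, threshold 0.1), after a trial on simulated data. Equivalence used margins of 1 on the log2 scale. Depth was 1060063 to 1632695 reads per embryo. Alternatives were DESeq2 1.42.0, RLE factors, 1 library size per embryo, other filters, margins, a term for each embryo and leaving out each embryo. The alleles of an embryo come from the same animal and are a pair, and the correlation of their deviations was 0.0670 to 0.0976 in the forward and 0.120 to 0.415 in the reverse embryos. P-values of the cross test measure the spread between these embryos. Allele tests without a term for each embryo take the 16 allele libraries as independent. With that term their p-values measure how far the allele ratio varies from embryo to embryo. Promoter sequences came from RefSeq (GRCm38.p6).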

Additional observations from a re-analysis of the deposited data

Results flagged for a closer look

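Among 18 sets of 5 reverse embryos (level and paternal share of 9 genes), 2 held an embryo set apart from the others. About 1 set in 20 would by chance if the sets were independent and their values normally distributed. All sets come from the same 5 embryos, and the distribution of the values was not tested. Both were levels in reverse embryo 1, where Lats2 had 235 RPM (nearest reverse embryo 92.4) and Pard3 1228 (nearest reverse embryo 459). Forward embryo 1 had 668 RPM of Pard3. This embryo also had the low trophectoderm marker sum and the higher levels of genes of long span given above, and their part in both values was not tested.

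The paternal over maternal ratio differed between the crosses for 3 genes in the edgeR fit with a term for each embryo, which is the strain difference seen from the parental side. This fit called 25.6% of all genes, and without that term 0 of the 9 were called. On the log2 scale the strain difference (cast over B6) was 0.52 for Nf2, 0.42 for Tead1 and -0.34 for Pard3. The values of Nf2 and Tead1 were 0.18 and 0.07 with 1 library size per embryo, and that of Pard3 was -0.69.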

How the results depend on the processing

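No parental or cross difference was called for any of the 9 genes under any alternative run. For strain, the replicate block (a term for each embryo) raised the number of genes called from 0 to 3, as did the replicate block and 1 library size per embryo (3, another set). Leaving out each embryo gave 0 to 4 genes, 0 without the block and 1 to 4 with it. Over all genes these fits called 1206 to 2457 without the block and 2384 to 3468 with it. The number of equivalent genes was 3 to 8 when each embryo was left out and 0 with a margin of 1.5-fold. Over all genes it was 1625 to 6000 and 0 in these fits.

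Log2 values near 0 changed sign without a call. For parental alleles, Lats2 was at 0.0219 with 1 library size per embryo or DESeq2, at 0.0217 with RLE factors, at 0.00124 and 0.00448 with the stricter filters (4 allele libraries, every embryo) and at 0.000298 without a filter. Nf2 was at 0.00120 with 1 library size per embryo and 0.00195 with RLE factors, and Prkci at 0.00782 with the block and 1 library size. For strain, 1 library size per embryo put Lats1 at -0.0443 and Pard6b at -0.0645. For crosses, Yap1 was at 0.0200 with DESeq2, 0.0198 with RLE factors and 0.0341 with the filter on every embryo. Leaving out each embryo (blocked fits included) gave parental values of -0.14 to 0.15 for Lats2, -0.18 to 0.10 for Nf2, -0.15 to 0.0861 for Prkci and -0.53 to 0.0130 for Pard6b, strain values of -0.14 to 0.0633 for Wwtr1, and cross values of -0.19 to 0.17 for Yap1, -0.37 to 0.0925 for Wwtr1 and -0.63 to 0.000430 for Pard3.

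Over all genes, parental calls were 178, with 75 (10 reads in every embryo), 406 (no filter) and 391 (block) as alternatives, strain calls 1935, with 1064 (10 reads in every embryo), 1206 (without forward embryo 1), 3212 (block) and 3885 (block and 1 library size), and cross calls 13, with 125 (DESeq2), 143 (no filter), 0 (10 reads in every embryo), 55 (without reverse embryo 3) and 163 (without reverse embryo 1). Equivalence calls were 4439, with 7869 at a log2 margin of 1.5, 0 at 1.5-fold, and 2055, 1842 and 1625 without forward embryos 1, 2 and 3. The split of strain calls was 563 toward cast and 1372 toward B6, and 329 and 2291 with 1 library size per embryo. The embryo numbers 1, 2 and 3 shared by the crosses did not pair embryos (correlations 0.101, 0.00765 and 0.112), and a block of these numbers called 15 genes. Where these values moved, the cause was not tested. Lats1 and Pard6b were limited by depth.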
